A study of Homo sapiens with 19 samples.

Results

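The 53 genes described here belong to the families of enzymes known for adding methyl groups to histone lysines or arginines, or for taking them off lysines, and some members act mainly on other proteins. They are the protein-coding rows whose symbols begin with KDM1 to KDM8, KMT2, SETD, SUV39H, SUV420H, EHMT, WHSC1, PRMT or SMYD, or equal DOT1L, NSD1 or CARM1, leaving out KDM5C and the Y-linked KDM5D. All 53 are listed in each of the 3 expression tables, out of 19021 genes in the culture table, 26955 in the siSCIRT table and 28870 in the siEZH2 table. PRMT8, which the culture table does not list, and KDM4E, which only the siEZH2 table lists, matched the symbols but were set aside. The symbols are the older ones of the tables: WHSC1 is now called NSD2, WHSC1L1 NSD3, SETD8 KMT5A, SUV420H1 and SUV420H2 KMT5B and KMT5C, and PRMT10 PRMT9.

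All 19 RNA-seq libraries came from MDA-MB-231, an established human triple-negative breast cancer line with mesenchymal features. Adherent cells (n = 2) grew in DMEM with 10% FCS, and spheres were kept in suspension for 16 h (n = 2) or 5 d (n = 2) in DMEM/F12 with B27, 20 ng/ml EGF and 20 ng/ml FGF. In the siRNA experiments cells received control siRNA (siNC, n = 3), siSCIRT 1 (n = 3) or siSCIRT 2 (n = 3) against the long noncoding RNA SCIRT, or siNC (n = 2) or siEZH2 (n = 2), and stayed 48 h in sphere medium. Spheres differ from adherent cells in attachment, medium, serum and growth factors together, and the parts of these in the sphere results cannot be told apart. Nor can a changed number of cells of 1 state and a changed amount of RNA per cell, in RNA from whole cultures. The siRNA groups are transient knockdowns in 1 cell line.

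Histone lysine methyltransferases carry a SET domain, apart from DOT1L, and take the methyl group from S-adenosylmethionine. Marks on H3K4 and H3K36 are typical of transcribed chromatin, and those on H3K9, H3K27 and H4K20 of silent chromatin. KDM1A and KDM1B remove methyl groups with a flavin, while the JmjC demethylases need oxygen, iron and 2-oxoglutarate, and several of them are known targets of hypoxia signalling. PRMT enzymes methylate arginines of histones and of many splicing and signalling proteins. In breast cancer, enzymes of these families are studied as regulators of cell identity and as drug targets.

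Culture libraries held 6104222 to 14781941 recovered reads, siSCIRT libraries and their controls 38635418 to 62218847, and siEZH2 libraries and their controls 27989577 to 38955312. The line's markers VIM, CD44, AXL, MSN, CAV1 and EGFR were present in every group, with a summed level of 61509 to 90897 normalized counts in the culture libraries. Markers of blood, endothelial and stromal cells summed to 79.2 to 84.6 in adherent cells, 1082 to 1103 in 16 h spheres and 108 to 129 in 5 d spheres, and 1 gene, the stromal marker DCN, made up 1014 and 999 of the 16 h sum. In those libraries the blood marker PTPRC was at 0 and the stromal marker PDGFRB at 22.4 and 29.3, below its 54.3 and 56.0 in adherent cells. Their part in the results was not tested. The knockdown targets fell: SCIRT (RP5-1120P11.1) by 1.16 ± 0.16 on the log2 scale with siSCIRT 1 and by 1.10 ± 0.16 with siSCIRT 2, and EZH2 by 0.92 ± 0.15 with siEZH2. Throughout, normalized counts are reads divided by a library's size factor, and changes are log2 fold changes of the normalized count plus 1 with their standard error. A gene was called at an adjusted p under 0.05, and "rose" and "fell" are used of called genes. The variance between culture duplicates, averaged over genes, was 2.03 to 2.08 times that of read counting alone, against 5.19 to 26.7 times between siRNA replicates. This ratio grows with depth, and the siRNA libraries were deeper, so these ranges are not on the same scale.

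By 5 d, spheres held more RNA of 9 of 14 demethylases and of methyltransferases such as KMT2A, KMT2C, KMT2D, SETD2 and NSD1 than adherent cells. They held less of the H3K9 enzymes SUV39H1 and SUV39H2, of the H3K36 enzyme WHSC1 and of 6 of 8 arginine methyltransferases. Among those arginine enzymes, only PRMT1 and PRMT5 stayed called when each library was left out in turn. Of the demethylases that rose, KDM2A did not stay called. At 16 h 20 of the 52 members tested rose and 10 fell against adherent cells, where 27.4% of all 13789 genes tested rose and 26.5% fell. Their median change was 0.07, beside -0.01 over all genes. At 5 d 20 rose and 16 fell, beside 26.3% and 28.9% of all genes, with a median of 0.02 against -0.02. Without adherent replicate 1 the 5 d counts were 20 and 10. Changes of at least 2-fold were called for 8 members at 16 h, beside 17.1% of all genes, and for 6 at 5 d, beside 14.6%. Most genes tested changed in spheres, so these counts alone do not set the enzymes apart, while single enzymes differ widely from each other. The counts by role below are read beside the same shares of all genes. KDM4D was the 1 member under the filter of a mean of 10 normalized counts, at 0 to 11.0 in the culture libraries.

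**Figure D1:**
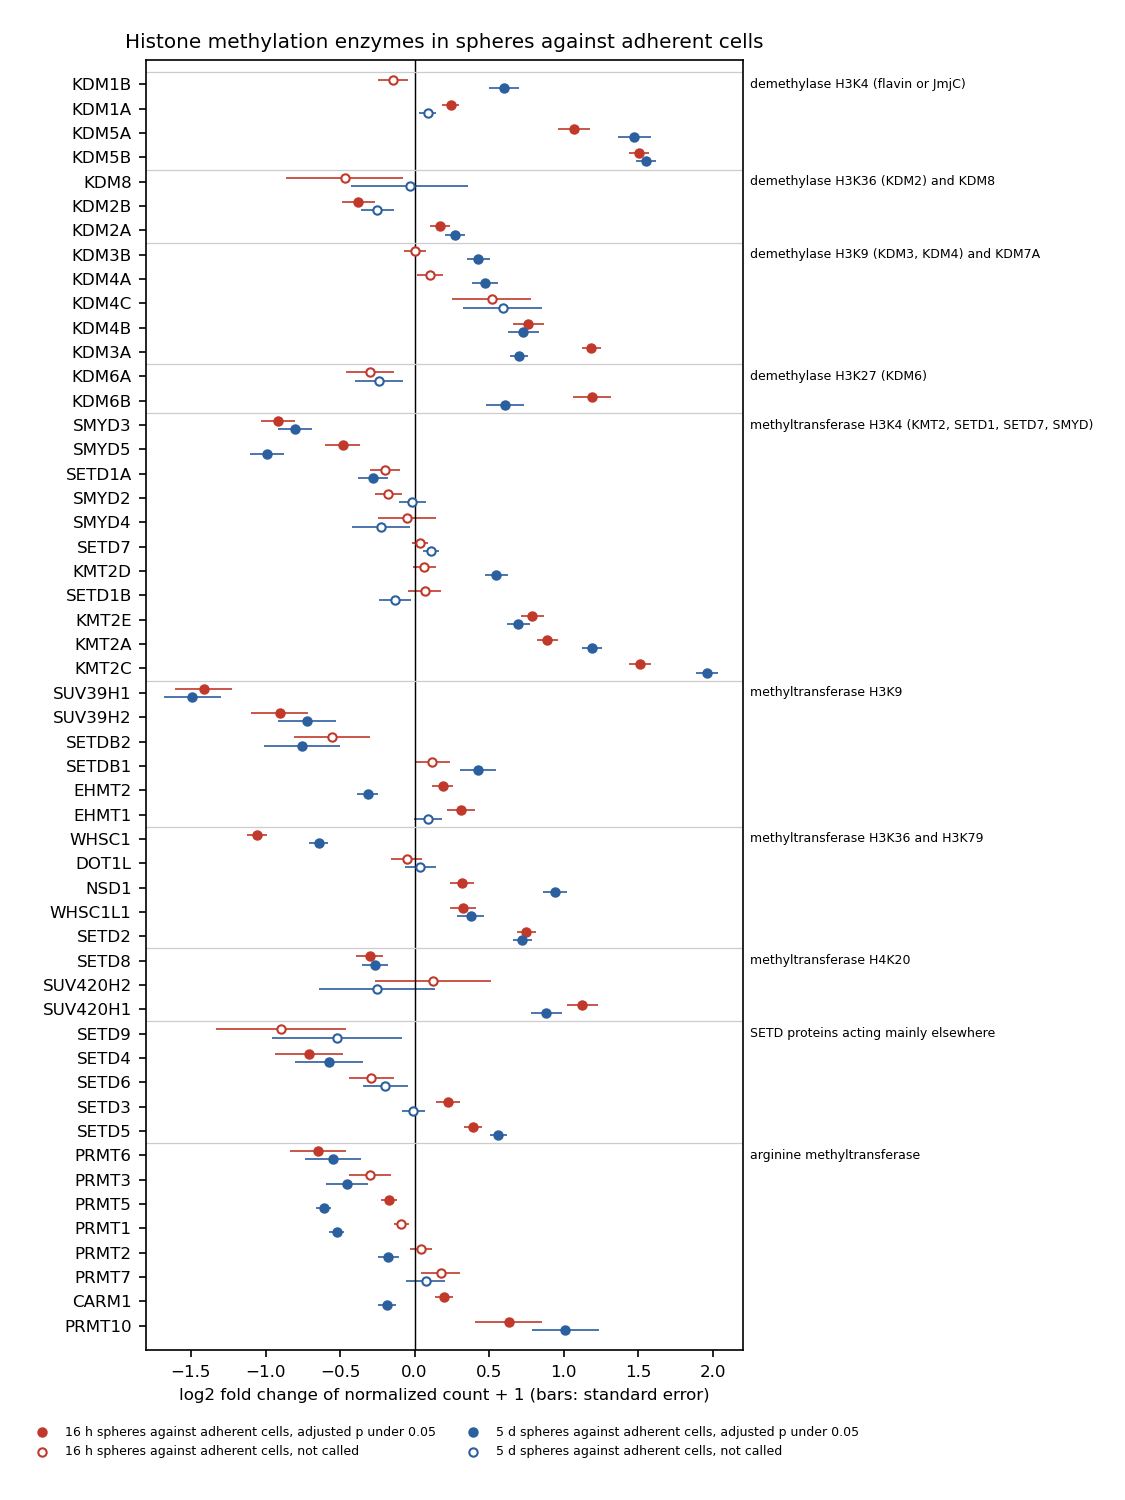
Change of each of the 52 members tested in 16 h spheres (red) and 5 d spheres (blue) against adherent cells, grouped by role. The x axis is the log2 fold change of the normalized count plus 1, bars are standard errors, and filled points have an adjusted p under 0.05. KMT2C, KDM5B and KDM5A lie farthest to the right at 5 d and SUV39H1 farthest to the left. Each comparison uses the same 2 adherent libraries.

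Of the 14 demethylases tested, 7 rose and 1 fell at 16 h (median 0.21), and 9 rose at 5 d while the other 5 were not called (median 0.53). Among those acting on H3K4, KDM5B, a JmjC enzyme that removes methyl groups from trimethylated H3K4, held 461 and 437 normalized counts in the adherent libraries, 1300.4 and 1249 at 16 h and 1284 and 1354 at 5 d. All 4 sphere libraries lay far above both adherent ones. The change was 1.50 ± 0.07 at 16 h, or 2.83-fold (adjusted p = 5.16e-21), and 1.55 ± 0.07 at 5 d, or 2.93-fold (adjusted p = 3.11e-21). Its relative KDM5A, which has the same activity, went from 189 and 216 to 389 and 463 at 16 h and 543 and 581 at 5 d. KDM5A rose by 1.07 ± 0.11 at 16 h and 1.47 ± 0.11 at 5 d, and was higher at 5 d than at 16 h by 0.40 ± 0.11 (adjusted p = 0.00262), a call lost without 16 h replicate 1 (0.28, adjusted p = 0.0886). The groups did not overlap at any step. KDM5B did not differ between the sphere times by the test (0.05 ± 0.07, adjusted p = 0.579).

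The flavin enzymes were ordered differently. KDM1A, the LSD1 subunit of the CoREST complex, stood at 1125 and 1149 in adherent cells, 1358 and 1332 at 16 h and 1179 and 1239 at 5 d. It rose at 16 h by 0.24 ± 0.06 (adjusted p = 0.000514), with 0.09 ± 0.06 at 5 d (adjusted p = 0.2). KDM1B, the other LSD-type enzyme, stood at 398 and 346 in adherent cells, 345 and 327 at 16 h and 560.0 and 567 at 5 d. It was not called at 16 h (-0.14 ± 0.10, adjusted p = 0.234) and rose by 0.60 ± 0.10 at 5 d (adjusted p = 3.56e-06). Both 5 d libraries exceeded all 4 others, and the step from 16 h to 5 d was 0.74 ± 0.10 (adjusted p = 9.41e-08).

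The H3K9 demethylases rose or stayed uncalled. KDM3A, which takes methyl groups off H3K9 and is a known target of hypoxia-inducible factor, held 696 and 701 normalized counts in adherent cells, 1659.6 and 1524 at 16 h and 1153 and 1120.0 at 5 d. It rose by 1.19 ± 0.06 at 16 h, or 2.27-fold (adjusted p = 7.62e-19), while the 5 d rise was 0.70 ± 0.06 (adjusted p = 3.77e-12), with a fall of 0.48 ± 0.06 from 16 h to 5 d (adjusted p = 3.81e-08). The 3 culture groups were separate, with 16 h highest. KDM4B, a demethylase of trimethylated H3K9 and another known hypoxia target, stood at 267 and 265, then 437 and 469, then 464 and 422. It rose by 0.76 ± 0.10 and 0.73 ± 0.10 (adjusted p = 6.54e-08 and 1.76e-07), and the sphere times overlapped. KDM3B stood at 733 and 685 in adherent cells, 739 and 681 at 16 h and 1002 and 907 at 5 d. KDM4A stood at 489.7 and 499, 541 and 522, and 650.1 and 723. Both were called only at 5 d, KDM3B by 0.43 ± 0.08 and KDM4A by 0.47 ± 0.09, and both were higher at 5 d than at 16 h (0.43 ± 0.08 and 0.37 ± 0.09, adjusted p = 1.19e-05 and 0.00051). KDM4C was not called, and its 5 d libraries stood apart at 116 and 57.0, beside 54.3 and 53.0 in adherent cells.

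KDM6B, the H3K27 demethylase JMJD3 induced by stress and inflammatory signals, held 177 and 164 in adherent cells, 386 and 393 at 16 h and 271 and 248 at 5 d. It rose by 1.19 ± 0.13 at 16 h and by 0.61 ± 0.13 at 5 d (adjusted p = 2.06e-10 and 8.66e-05), and was 0.58 ± 0.13 lower at 5 d than at 16 h, as for KDM3A (adjusted p = 0.000185). Its paralogue KDM6A, UTX, was not called at either time (-0.30 ± 0.16 and -0.24 ± 0.16), with 243 and 218 in adherent cells, 162 and 215 at 16 h and 229.8 and 165 at 5 d. The H3K36 demethylase KDM2A stood at 984 and 959.5, 1124 and 1066, and 1088 and 1266, with changes of 0.17 ± 0.07 and 0.27 ± 0.07. The 16 h call of KDM2A was lost without adherent replicate 1 (0.19, adjusted p = 0.0639), adherent replicate 2 (0.15, adjusted p = 0.143) or 16 h replicate 1 (0.13, adjusted p = 0.202), and the 5 d call without 5 d replicate 2 (0.16, adjusted p = 0.0601). KDM2B, which recruits a Polycomb complex to CpG islands, was the 1 demethylase that fell at 16 h, from 416 and 388 to 289.9 and 329.8 (-0.38 ± 0.11, adjusted p = 0.00345). That call was lost without adherent replicate 1 (-0.33, adjusted p = 0.0677) or 16 h replicate 1 (-0.28, adjusted p = 0.061). KDM8 stayed between 17.1 and 29.3 in all 6 libraries and was not called.

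In the culture libraries, genes of the hypoxia response moved beside these demethylases. All 10 classic hypoxia targets tested rose at 16 h (median 2.14, range 0.94 to 6.95), 9 rose and 1 fell at 5 d (median 1.11), and 9 fell from 16 h to 5 d. Their summed level was 32265 to 32492 normalized counts in adherent cells, 148205 to 149549 at 16 h and 68578 to 68855 at 5 d. KDM3A and KDM6B thus had the same order of groups as this list, and so did KDM1A, whose 5 d change was not called. The call of KDM1A's fall from 16 h to 5 d was lost without 16 h replicate 1 (-0.14), 16 h replicate 2 (-0.17) or 5 d replicate 1 (-0.12). Quantile normalization lost it as well (-0.10, limma adjusted p = 0.151). KDM4B and KDM5B did not differ between the sphere times by the test, and KDM5A and KDM1B were higher at 5 d. Members outside the demethylases, such as CARM1, EHMT2 and SETD3, were highest at 16 h as well. The part of hypoxia signalling in the enzyme results was not tested.

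Promoters are printed for KDM3A, KDM4B, KDM5B and KDM6B, demethylases that rose at 16 h beside the hypoxia genes, and for WHSC1, which fell in spheres and moved in both knockdowns. They are the 250 bases before the RefSeq start (GRCh38.p14), 5′ to 3′ on the gene's strand. Capitals mark the hypoxia response element core (ACGTG or GCGTG, both strands, overlapping matches counted) in the demethylases, and in WHSC1 the cell cycle homology region (TTTGAA or TTCGAA) and an E2F site (TTTGGCGC, TTTCGCGC, TTTCCCGC or TTTGCCGC). The tables themselves were made on hg19, so genes were matched by Ensembl identifier and current symbol, not by position. KDM3A lies at chr2:86441121-86441370 (plus strand), KDM4B at chr19:4968863-4969112 (plus), KDM5B at chr1:202808422-202808671 (minus), KDM6B at chr17:7833967-7834216 (plus) and WHSC1 at chr4:1871143-1871392 (plus).
KDM3A: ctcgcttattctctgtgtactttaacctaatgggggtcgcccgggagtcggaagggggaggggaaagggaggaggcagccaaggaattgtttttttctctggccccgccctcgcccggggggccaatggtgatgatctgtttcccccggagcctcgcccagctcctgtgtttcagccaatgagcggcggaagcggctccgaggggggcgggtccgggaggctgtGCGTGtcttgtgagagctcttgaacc
KDM4B: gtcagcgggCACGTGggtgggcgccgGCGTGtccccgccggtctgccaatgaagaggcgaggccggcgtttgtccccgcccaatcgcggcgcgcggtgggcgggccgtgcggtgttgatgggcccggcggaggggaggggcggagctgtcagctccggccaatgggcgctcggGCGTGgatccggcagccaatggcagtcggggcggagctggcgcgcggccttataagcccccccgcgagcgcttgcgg
KDM5B: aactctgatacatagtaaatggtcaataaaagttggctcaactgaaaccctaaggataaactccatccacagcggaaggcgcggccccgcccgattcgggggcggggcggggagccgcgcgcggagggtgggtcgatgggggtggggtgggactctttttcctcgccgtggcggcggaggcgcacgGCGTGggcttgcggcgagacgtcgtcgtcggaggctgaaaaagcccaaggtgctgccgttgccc
KDM6B: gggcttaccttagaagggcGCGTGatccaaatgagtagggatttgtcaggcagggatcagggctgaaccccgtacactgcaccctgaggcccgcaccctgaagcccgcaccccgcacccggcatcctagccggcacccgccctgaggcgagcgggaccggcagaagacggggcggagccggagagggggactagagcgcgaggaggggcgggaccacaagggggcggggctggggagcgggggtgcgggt
WHSC1: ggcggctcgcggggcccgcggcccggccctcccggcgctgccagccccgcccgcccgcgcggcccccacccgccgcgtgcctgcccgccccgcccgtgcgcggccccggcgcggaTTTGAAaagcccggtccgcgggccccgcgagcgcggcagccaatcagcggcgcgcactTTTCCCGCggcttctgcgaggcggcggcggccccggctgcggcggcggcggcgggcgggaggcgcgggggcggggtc
The core is common: 43.1% of the 27305 promoters in the RefSeq table hold it, and 37 of the 50 members matched there (74%). The 27305 promoters were not limited to genes tested here or matched for base content, and the difference was not tested. It was found in 17 of 19 members that rose at 16 h, 5 of 10 that fell and 15 of 20 not called. The cell cycle homology region is in 14.6% of all promoters and in 1 member, WHSC1, whose promoter also holds 1 hypoxia core that is left in lower case. An E2F site is in 2.79% of all promoters and in 2 members, KDM1B and WHSC1. A match is a string of letters and not a bound site.

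Among the 11 H3K4 methyltransferases and relatives, 3 rose and 2 fell at 16 h, and 4 rose and 3 fell at 5 d. The risers were KMT2 genes, a family that includes the large MLL-type enzymes of COMPASS complexes, which act at promoters and enhancers. KMT2C, MLL3, went from 358 and 406 normalized counts to 1025 and 1157 at 16 h and 1503 and 1474 at 5 d. Its change was 1.51 ± 0.07 at 16 h (adjusted p = 8.8e-20) and 1.96 ± 0.07 at 5 d, or 3.89-fold (adjusted p = 3.86e-23), with 0.45 ± 0.07 between the sphere times. The 3 groups were fully separate and in the order adherent, 16 h, 5 d. KMT2C has near-identical copies of some exons elsewhere in the genome, so its level is uncertain where the counting split reads among them. KMT2A, MLL1, took the same order, at 547 and 619, 1111 and 1050.3, and 1303 and 1354. It rose by 0.89 ± 0.07 and 1.19 ± 0.07 (adjusted p = 7.19e-14 and 2.2e-17). KMT2E, a SET protein that binds methylated H3K4, stood at 522 and 531, 923 and 898, and 917 and 795. It rose by 0.79 ± 0.08 and 0.70 ± 0.08, and the sphere times overlapped. KMT2D, MLL4, was not called at 16 h (0.06 ± 0.08) and rose by 0.55 ± 0.08 at 5 d (adjusted p = 1.44e-07).

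The other members of this role fell or were not called. SMYD5, a protein with SET and MYND domains, fell from 454 and 440.2 to 321 and 319 at 16 h and to 248 and 203 at 5 d. The changes were -0.48 ± 0.12 and -0.99 ± 0.12 (adjusted p = 0.00057 and 3.23e-09), and the groups did not overlap. SMYD3, a methyltransferase of the same family often raised in tumours, fell by 0.91 ± 0.11 and 0.80 ± 0.11. SETD1A, the catalytic subunit of another COMPASS complex, fell at 5 d by 0.28 ± 0.10 (adjusted p = 0.0181), a call lost without adherent replicate 1 (-0.23, adjusted p = 0.179) or 5 d replicate 1 (-0.19, adjusted p = 0.161). SETD1B, SETD7, SMYD2 and SMYD4 were called at neither time, with values from -0.22 to 0.11. Among 11 COMPASS and MLL partners tested, 1 rose and 4 fell at 16 h, and 2 rose and 2 fell at 5 d, with PSIP1, LEDGF (-0.72 ± 0.11), HCFC1 (-0.48) and PAXIP1 (-0.45) lower at 16 h.

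Of the 6 H3K9 methyltransferases, 2 rose and 2 fell at 16 h, and 1 rose and 4 fell at 5 d. SUV39H1, which trimethylates H3K9 in pericentric heterochromatin, held 214 and 237 normalized counts in adherent cells, 79.9 and 87.9 at 16 h and 83.8 and 75.5 at 5 d. The change was -1.42 ± 0.19 at 16 h, 2.67-fold lower (adjusted p = 5.36e-08), and -1.49 ± 0.19 at 5 d, 2.81-fold lower (adjusted p = 2.05e-08). The 4 sphere libraries were alike and far below the adherent pair. SUV39H2, with the same activity, went from 172 and 156 to 93.8 and 80.6 and then 92.1 and 106. It fell by 0.91 ± 0.19 and 0.72 ± 0.19 (adjusted p = 0.000138 and 0.00181). SETDB2 had the same sign (-0.56 ± 0.26 at 16 h, adjusted p = 0.0646) and fell at 5 d by 0.75 ± 0.26 (adjusted p = 0.0118), a call lost without adherent replicate 1 (-0.57, adjusted p = 0.197). SETDB1, which silences retroelements with KAP1, stood at 312 and 272, 284 and 352, and 409.9 and 373, a rise at 5 d of 0.43 ± 0.12 (adjusted p = 0.00248). That call was lost without adherent replicate 2 (0.33, adjusted p = 0.0672), and the step from 16 h to 5 d (0.31 ± 0.12) without 16 h replicate 1 (0.15, adjusted p = 0.382) or 5 d replicate 1 (0.24, adjusted p = 0.165).

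EHMT2, the G9a enzyme that dimethylates H3K9 in euchromatin, changed sign between the times. It stood at 875 and 890.1 in adherent cells, 992 and 1021 at 16 h and 752 and 670.2 at 5 d. The change was 0.19 ± 0.07 at 16 h (adjusted p = 0.0231) and -0.31 ± 0.07 at 5 d (adjusted p = 0.000264), and the sphere times differed by -0.50 ± 0.07 (adjusted p = 2.19e-07). The 16 h call alone was lost without any 1 of the 4 libraries compared: adherent replicate 1 (0.18, adjusted p = 0.129), adherent replicate 2 (0.20, adjusted p = 0.08), 16 h replicate 1 (0.21, adjusted p = 0.0532) and 16 h replicate 2 (0.17, adjusted p = 0.122). Its partner EHMT1, GLP, rose at 16 h by 0.31 ± 0.10, a call lost without 16 h replicate 2 (0.19, adjusted p = 0.171). It was not called at 5 d (0.09 ± 0.10), nor between the sphere times (-0.22 ± 0.10, adjusted p = 0.0554). Of the HP1 proteins that read methylated H3K9, CBX5 rose at both times (0.44 and 0.52), CBX1 fell at both (-0.21 at each) and CBX3 fell at 5 d (-0.15).

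**Figure D2:**
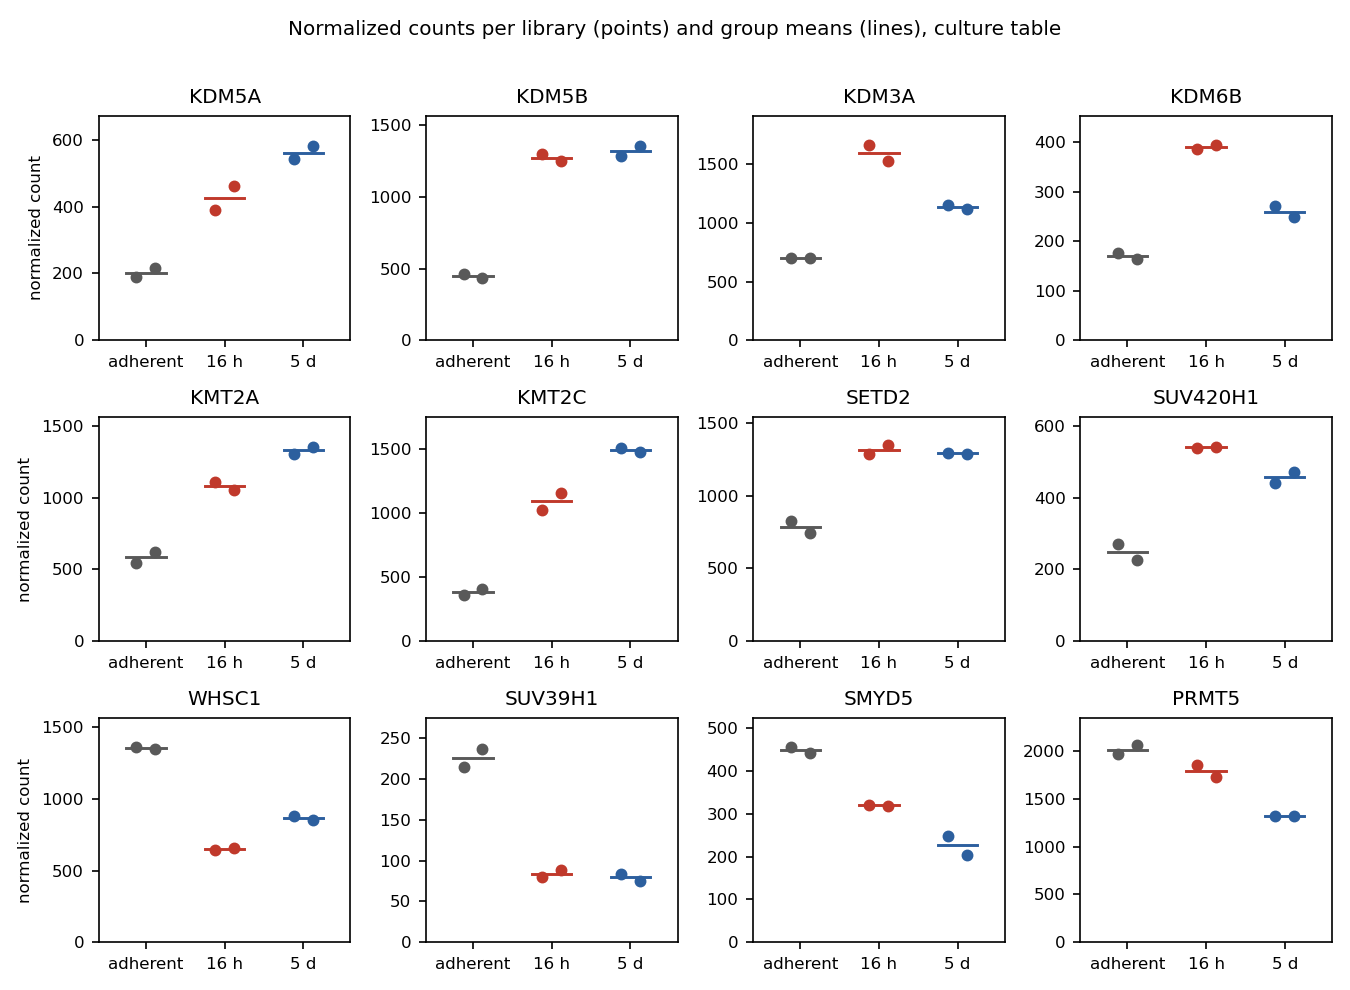
Normalized counts of 12 members in each culture library (points) with the mean of each pair (line), for adherent cells, 16 h spheres and 5 d spheres. Every y axis starts at 0 and has its own scale. KDM5A, KMT2A and KMT2C are highest at 5 d, KDM3A and KDM6B at 16 h, and WHSC1 is lowest at 16 h.

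Of the 5 enzymes acting on H3K36 or H3K79, 3 rose and 1 fell at each time, and DOT1L, the H3K79 methyltransferase, was not called (-0.05 ± 0.10 and 0.04 ± 0.10). SETD2, which places trimethylated H3K36 behind elongating polymerase, stood at 823 and 742, 1283 and 1345, and 1293 and 1286. It rose by 0.75 ± 0.06 and 0.72 ± 0.06 (adjusted p = 7.29e-13 and 2.34e-12), with the sphere libraries together above the adherent ones. NSD1, which dimethylates H3K36, stood at 523 and 483, 669 and 586, and 935 and 1003. It rose by 0.32 ± 0.08 and 0.94 ± 0.08 (adjusted p = 0.0012 and 1.68e-12), and was higher at 5 d than at 16 h by 0.63 ± 0.08 (adjusted p = 4.51e-08). The 16 h call of NSD1 was lost without 16 h replicate 1 (0.22, adjusted p = 0.0589). WHSC1L1, the third NSD gene, stood at 465 and 432, 532 and 592, and 588 and 576. It rose by 0.32 ± 0.09 and 0.38 ± 0.09, and its 16 h call was lost without adherent replicate 2 (0.27, adjusted p = 0.0518) or 16 h replicate 2 (0.25, adjusted p = 0.057).

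WHSC1, the NSD2 enzyme that dimethylates H3K36, moved against its relatives. It held 1363 and 1353 normalized counts in adherent cells, 643 and 662 at 16 h and 884 and 853 at 5 d. It fell by 1.06 ± 0.07 at 16 h, 2.08-fold (adjusted p = 1.44e-16), while the 5 d fall was 0.64 ± 0.07 (adjusted p = 1.42e-10), and rose by 0.41 ± 0.07 between the sphere times (adjusted p = 2.46e-06). The 3 groups were separate. S phase genes had the same order of groups: all 10 tested fell at 16 h (median -1.65), 8 fell at 5 d (median -0.82) and 10 rose from 16 h to 5 d (median 0.64). Their summed level was 9359 to 9409 normalized counts in adherent cells, 3127 to 3141 at 16 h and 4955 to 5070 at 5 d, and their part in the WHSC1 and SUV39H1 results was not tested. EZH2, the H3K27 methyltransferase outside the 53, fell by 1.63 ± 0.12 and 0.59 ± 0.12, and ASH1L, an H3K36 methyltransferase also outside them, rose by 1.05 ± 0.07 and 1.20 ± 0.07.

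The H4K20 enzymes split by step. SUV420H1, which makes di- and trimethylated H4K20, went from 270.1 and 225 to 537 and 542 at 16 h and 441 and 471 at 5 d. It rose by 1.13 ± 0.10, or 2.18-fold, and by 0.88 ± 0.10 (adjusted p = 9.25e-12 and 4.03e-09), without overlap between adherent and sphere libraries. SETD8, which places the first methyl group on H4K20 and is needed for orderly S phase and mitosis, stood at 622 and 636, 551 and 471, and 504 and 542. It fell by 0.30 ± 0.09 and 0.27 ± 0.09 (adjusted p = 0.00425 and 0.0114). The 16 h call of SETD8 was lost without 16 h replicate 2 (-0.19, adjusted p = 0.123), and the 5 d call without adherent replicate 2 (-0.25, adjusted p = 0.0808) or 5 d replicate 1 (-0.21, adjusted p = 0.0795). SUV420H2 lay between 20.3 and 45.2 in all libraries and was not called.

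Of 5 SETD proteins not placed under a histone mark here, SETD5 rose at both times (0.39 ± 0.06 and 0.56 ± 0.06). It went from 969.7 and 949 to 1269 and 1248 and then 1445 and 1388. The groups were separate and in order of time, with a step of 0.17 ± 0.06 from 16 h to 5 d that was lost without 16 h replicate 2 (0.16, adjusted p = 0.074) or 5 d replicate 1 (0.14, adjusted p = 0.0926). SETD3, the actin histidine methyltransferase, stood at 678 and 654, 768 and 788, and 623 and 703. It rose at 16 h only (0.22 ± 0.08, adjusted p = 0.0143), a call lost without adherent replicate 2 (0.20, adjusted p = 0.116) or 16 h replicate 2 (0.21, adjusted p = 0.0833), and its later fall of 0.23 ± 0.08 was lost without 16 h replicate 2 (-0.22, adjusted p = 0.0794) or 5 d replicate 1 (-0.15, adjusted p = 0.171). SETD4, at 117 and 97.4 in adherent cells, was at 60.8 and 69.6 and then 78.7 and 64.7. The changes of -0.71 ± 0.23 and -0.57 ± 0.23 were called. Neither stayed called without adherent replicate 1 (-0.58, adjusted p = 0.143, and -0.44, adjusted p = 0.271), nor at 16 h without 16 h replicate 1 (-0.61, adjusted p = 0.0606), nor at 5 d without adherent replicate 2 (-0.71, adjusted p = 0.0591) or 5 d replicate 2 (-0.44, adjusted p = 0.164). SETD6 and SETD9 were not called.

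Of the 8 arginine methyltransferases, 2 rose and 2 fell at 16 h, near the shares of all genes, and 1 rose and 6 fell at 5 d (median -0.32). PRMT5, the main enzyme of symmetric arginine dimethylation, held 1967 and 2054 normalized counts in adherent cells, 1850.3 and 1721 at 16 h and 1318 and 1316 at 5 d. It fell by 0.61 ± 0.05 at 5 d (adjusted p = 7.16e-13) and by 0.17 ± 0.05 at 16 h (adjusted p = 0.00452). The smaller 16 h fall was lost without adherent replicate 2 (-0.14, adjusted p = 0.0965) or 16 h replicate 2 (-0.12, adjusted p = 0.104), and the step from 16 h to 5 d was -0.44 ± 0.05 (adjusted p = 4.18e-09). PRMT1, the main asymmetric dimethylase, stood at 2032 and 2010.3, 1899 and 1904, and 1453 and 1362. It was not called at 16 h (-0.09 ± 0.05) and fell by 0.52 ± 0.05 at 5 d (adjusted p = 1.65e-11), with a step of -0.43 ± 0.05 from 16 h to 5 d. For both enzymes the 5 d libraries lay below all 4 others. CARM1, a coactivator that methylates H3R17, stood at 1175 and 1143, 1272 and 1385, and 1039 and 997, highest at 16 h and lowest at 5 d without overlap. The changes of 0.20 ± 0.06 and -0.19 ± 0.06 were called, as was the step of -0.38 ± 0.06 between them (adjusted p = 2.18e-06). At 16 h the CARM1 call was lost without adherent replicate 2 (0.18, adjusted p = 0.0751) or 16 h replicate 2 (0.13, adjusted p = 0.13), and at 5 d without adherent replicate 1 (-0.17, adjusted p = 0.0903) or 5 d replicate 2 (-0.16, adjusted p = 0.0568).

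PRMT6, which methylates H3R2, stood at 172 and 199, 142 and 97.7, and 114 and 140.2, with changes of -0.65 ± 0.19 and -0.55 ± 0.19. Both calls were lost without adherent replicate 2 (-0.54, adjusted p = 0.0679, and -0.44, adjusted p = 0.144), at 16 h also without 16 h replicate 2 (-0.38, adjusted p = 0.128), and at 5 d also without 5 d replicate 1 (-0.40, adjusted p = 0.114). PRMT3, which methylates a ribosomal protein, stood at 253 and 251, 219.6 and 191, and 175 and 193, and fell at 5 d by 0.46 ± 0.14, a call lost without adherent replicate 1 (-0.45, adjusted p = 0.0516). PRMT2 fell at 5 d by 0.18 ± 0.07, a call lost without adherent replicate 1 (-0.12, adjusted p = 0.318) or 5 d replicate 1 (-0.16, adjusted p = 0.107), and PRMT7 was not called. PRMT10 was the exception, at 57.3 and 62.7 in adherent cells, 92.7 and 94.0 at 16 h and 100.4 and 148 at 5 d. It rose by 0.63 ± 0.22 and 1.01 ± 0.22 (adjusted p = 0.0163 and 0.000203), and its 16 h call was lost without adherent replicate 1 (0.57, adjusted p = 0.101), 16 h replicate 1 (0.64, adjusted p = 0.0574) or 16 h replicate 2 (0.62, adjusted p = 0.0681). Of 4 PRMT5 partners, COPRS, which directs PRMT5 to histones, fell at both times (-0.92 and -0.87), while WDR77, the MEP50 subunit, fell (-0.51 ± 0.16) and CLNS1A rose (0.43) at 16 h.

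Between the sphere times 11 of 52 members rose and 10 fell from 16 h to 5 d, beside 22.8% of all genes higher and 25.5% lower, and the changes ran from -0.58 to 0.74. With quantile normalization the split was 13 higher and 7 lower. The largest rises were of KDM1B, NSD1 and KMT2D (0.48 ± 0.08) and the largest falls of KDM6B, SMYD5 (-0.51 ± 0.12) and EHMT2. The arginine methyltransferases supplied 4 of the 10 falls (PRMT1, PRMT2, PRMT5 and CARM1), and that of PRMT2 was lost without 16 h replicate 1 (-0.20, adjusted p = 0.0666).

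Genes that supply both reactions, and partners and relatives of the enzymes, are counted here beside the 27.4% and 26.5% of all genes that rose and fell at 16 h and the 26.3% and 28.9% at 5 d. Of 9 methyl donor cycle genes, 3 rose and 4 fell at 16 h, and 5 rose and 3 fell at 5 d. NNMT, which uses S-adenosylmethionine to methylate nicotinamide, rose by 3.73 ± 0.07 and 2.97 ± 0.07, MAT2A, which makes S-adenosylmethionine, by 0.65 ± 0.04 and 0.40 ± 0.04, and MTR, methionine synthase, by 1.00 and 1.14. Of 7 genes tied to 2-oxoglutarate, 2 rose and 3 fell at 16 h, and 3 rose and 2 fell at 5 d, with IDH1 lower at 16 h (-0.57 ± 0.07) and higher at 5 d (0.75 ± 0.07). Of 7 CoREST partners of KDM1A, 4 rose and 1 fell at 16 h and 6 rose at 5 d, led by PHF21A, which reads unmethylated H3K4 (1.55 ± 0.10 at 16 h). Of 7 other JmjC proteins tested, 4 rose and 1 fell at 16 h, and 4 rose and 3 fell at 5 d, with JMJD1C, a KDM3 relative, higher at both (0.77 and 0.88).

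Members with longer transcripts had higher changes in spheres. By the longest coding transcript in GENCODE 29, 7 of the 10 members over 8000 bases rose and 1 fell at 16 h (median 0.54), against 4 and 7 of the 20 under 4000 bases (median -0.23) and 9 and 2 of the 22 between. At 5 d the counts were 8 and 1 of 10 (median 0.83), against 2 and 11 of 20 (median -0.26), and the 22 members between had 10 rises and 4 falls. Across members, Spearman's rho of length and change was 0.51 at 16 h and 0.61 at 5 d (n = 52 genes), where all protein-coding genes tested gave 0.08 and 0.22 (n = 11545). These genes share the same 6 libraries and are not independent replicates, so no p is given. Of all coding genes tested over 8000 bases, 46.1% rose and 20.3% fell at 16 h, and 53.3% and 14.9% at 5 d. Under 4000 bases the shares were 25.1% and 30.0% at 16 h and 20.3% and 37.0% at 5 d, and between them 31.9% and 27.3%, then 33.4% and 24.8%. The share of reads from mitochondrial transcripts, a sign of RNA quality, was 6.83 to 6.89% in adherent cells, 8.55 to 8.56% at 16 h and 9.65 to 9.74% at 5 d, and its part in this pattern was not tested.

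**Figure D3:**
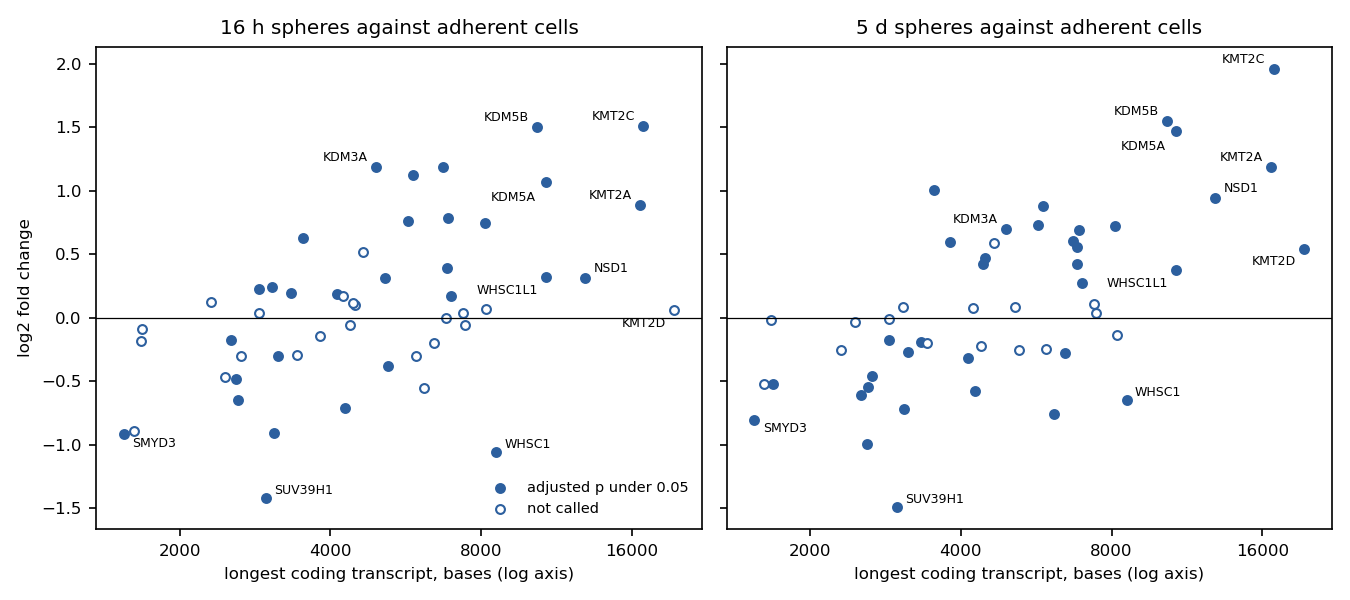
Change of each of the 52 members against the length of its longest coding transcript (log axis, bases), at 16 h (left) and 5 d (right). Filled points have an adjusted p under 0.05. WHSC1 is the long member that fell, and SUV39H1 and SMYD3 are short ones.

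The kit does not keep the strand of RNA, so reads from genes on the opposite strand are counted together where exons overlap. Of the 53 members, 24 overlap such a gene by at least 50 exonic bases in GENCODE 29. The overlap covers 27.1% of exon bases in PRMT5 (PRMT5-AS1), 21.4% in SETD6 (CNOT1), 20.3% in SUV39H1, 19.9% in CARM1 (YIPF2), 13.4% in SETDB1 (CERS2) and 8.12% in EHMT2 (EHMT2-AS1), and the values of these genes are uncertain to that extent. PRMT1, PRMT5, CARM1 and SETD6 also have 1 annotated pseudogene copy each. WHSC1, SETD8, KDM5B, KDM3A, KDM6B, SMYD3 and SETD7 have no such overlap.

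In the SCIRT knockdowns the count of changed enzymes was near the share of all genes that changed. With siSCIRT 1, 1 of 53 members rose and 4 fell, beside 10.2% of all 16607 genes called in either direction, and with siSCIRT 2, 4 rose and 3 fell, beside 9.54%. Quantile normalization gave 3 rises and 4 falls with siSCIRT 1, and DESeq2 5 and 4 with siSCIRT 1 and 4 and 5 with siSCIRT 2. For the mean of both siRNAs 4 rose and 4 fell, beside 6.82% of all genes higher and 7.58% lower, with a median of 0.02 for members and 0.01 for all genes. The mean changes ran from -0.60 to 0.26. Both siRNAs were compared with the same 3 siNC libraries. Between siSCIRT 1 and siSCIRT 2 no member was called by limma, edgeR or DESeq2, and 2 members had an unadjusted limma p under 0.05.

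SUV39H1 had the largest fall. It held 559.6, 459 and 548 normalized counts under siNC, 350.3, 324 and 349 after siSCIRT 1, and 388, 369 and 281 after siSCIRT 2. Every knockdown library lay below every control. The change was -0.61 ± 0.13 with siSCIRT 1 (adjusted p = 0.00687) and -0.60 ± 0.13 with siSCIRT 2 (adjusted p = 0.00812). WHSC1 held 12021, 11876 and 13405 under siNC, 8607, 9451 and 9709.8 after siSCIRT 1, and 9075, 10524 and 10086 after siSCIRT 2, again with all knockdown libraries below the controls. It fell by 0.43 ± 0.08 (adjusted p = 0.00177) and 0.33 ± 0.08 (adjusted p = 0.0116), the latter not called without siNC replicate 3 (-0.27, adjusted p = 0.0733) or siSCIRT 2 replicate 1 (-0.27, adjusted p = 0.0522).

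SETD8 held 2960.3, 2831 and 3207 in the siNC libraries, 2064, 2161 and 2201 after siSCIRT 1, and 2564, 2662 and 2539 after siSCIRT 2. All 6 knockdown libraries lay below the controls, and those of siSCIRT 1 lowest. It fell with siSCIRT 1 by 0.48 ± 0.07 (adjusted p = 0.000305) and was not called with siSCIRT 2 (-0.21 ± 0.07, adjusted p = 0.0642). The difference between the siRNAs was -0.27 ± 0.07 and was not called (adjusted p = 1). PRMT3 held 864, 767 and 925 in the siNC libraries, 708, 659.8 and 674 after siSCIRT 1, and 657, 634 and 661 after siSCIRT 2. It fell by 0.32 ± 0.09 and 0.38 ± 0.09, but by the mean of both (-0.35 ± 0.08, adjusted p = 0.00629) the call was lost without siNC replicate 3 (-0.29, adjusted p = 0.0615). With siSCIRT 1 alone it was also lost without siNC replicate 1 (-0.31, adjusted p = 0.108), siNC replicate 3 (-0.26, adjusted p = 0.166), siSCIRT 1 replicate 2 (-0.30, adjusted p = 0.124) or siSCIRT 1 replicate 3 (-0.31, adjusted p = 0.106), and with siSCIRT 2 without siNC replicate 1 (-0.37, adjusted p = 0.0549) or siNC replicate 3 (-0.32, adjusted p = 0.0838).

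The 4 rises were small. KDM1A held 5167, 5333 and 5264 normalized counts under siNC, 6289, 6235 and 6143 after siSCIRT 1, and 5963, 6371 and 6103 after siSCIRT 2. All knockdown libraries lay above all controls, and the siRNAs overlapped. Its mean change was 0.23 ± 0.05 (adjusted p = 0.00497), or 0.24 ± 0.06 and 0.23 ± 0.06 with each siRNA. EHMT2, at 4069, 3782 and 3924 with siNC, was at 4349 to 4698 with siSCIRT 1 and 4472 to 4724 with siSCIRT 2 (mean change 0.22 ± 0.05, adjusted p = 0.0133). KDM4B, at 5259.9, 5797 and 4887, was at 5915 to 6303 and 6195 to 6414 (0.23 ± 0.06, adjusted p = 0.0158). KDM6B, at 2892, 3104 and 2851, was at 3103 to 3775 and 3325 to 3725, so that its lowest siSCIRT 1 library reached the highest control (0.26 ± 0.07, adjusted p = 0.0185). Without siNC replicate 3 the mean calls of EHMT2 (0.22, adjusted p = 0.0582), KDM4B (0.17, adjusted p = 0.129) and KDM6B (0.24, adjusted p = 0.101) were lost, and without siNC replicate 1 those of KDM4B (0.23, adjusted p = 0.0657) and KDM6B (0.25, adjusted p = 0.0767). With siSCIRT 1 alone only KDM1A was called, and EHMT2, KDM4B and KDM6B were not, while siSCIRT 2 alone called all 4. Each of these single-siRNA calls was lost without at least 1 library.

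S phase genes moved in the SCIRT knockdowns beside WHSC1, SETD8 and SUV39H1. All 10 fell for the mean of both siRNAs (median -0.55), and their summed level was 28740 to 37880 normalized counts under siNC, 20692 to 22349 after siSCIRT 1, and 21570 to 23526 after siSCIRT 2. The share of mitochondrial reads was 6.113 to 6.597% under siNC, 5.758 to 6.111% after siSCIRT 1 and 5.538 to 6.111% after siSCIRT 2, with the highest knockdown libraries just under the lowest control. The parts of both in the enzyme results were not tested. Of the demethylases, KDM5A, KDM5B and KDM3A, which had risen in spheres, were not called in either knockdown. KDM5B stood at 9228 to 11075 with siNC and 9774 to 11564 with siSCIRT 2 (0.11 ± 0.08, adjusted p = 0.454).

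With siEZH2, 2 of 53 members rose, beside 3.9% of all 15823 genes, and 1 fell, beside 2.94%. Quantile normalization and edgeR each gave 2 and 2. The median was 0.06 for members and 0.01 for all genes. WHSC1 held 4828 and 5273 normalized counts in the control libraries, against 6829 and 6719 after siEZH2, a rise of 0.42 ± 0.12 (adjusted p = 0.00994) that was lost without siNC replicate 1 (0.36, adjusted p = 0.248). SETD8 held 1360.3 and 1473 in the controls, against 1924 and 1844 after siEZH2, a rise of 0.41 ± 0.12 (adjusted p = 0.0171). Both knockdown libraries exceeded both controls for each gene. With so few libraries such separation was also seen in members not called, such as SUV39H1 and KDM1A (4883 and 4901, against 4181 and 4082 in the controls). The SETD8 call was lost without siEZH2 replicate 1 (0.38, adjusted p = 0.0552), siNC replicate 1 (0.35, adjusted p = 0.348) or siNC replicate 2 (0.47, adjusted p = 0.1). SETD7, a monomethylase of H3K4 and of many other proteins, went from 2332 and 2269 to 1852 and 1738 (-0.36 ± 0.12, adjusted p = 0.0447), without overlap. Its call was lost without siEZH2 replicate 2 (-0.31, adjusted p = 0.129), siNC replicate 1 (-0.34, adjusted p = 0.377) or siNC replicate 2 (-0.38, adjusted p = 0.241). S phase genes were higher as well, with 8 of 10 called (median 0.62) and a summed level of 7476 to 7613 with siNC and 10285 to 10835 with siEZH2, and their part was not tested. Of the 10 classic hypoxia targets, ADM (0.92 ± 0.12), LDHA (0.54 ± 0.14) and EGLN3 (0.52 ± 0.12) rose and the rest were not called. KDM3A (0.003 ± 0.12), KDM4B, KDM5B and KDM6B were not called either, and any link was not tested. SUV39H1 was not called, at 102 and 108 in the controls, against 118 and 119 after siEZH2 (0.17 ± 0.20, adjusted p = 0.693).

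**Figure D4:**
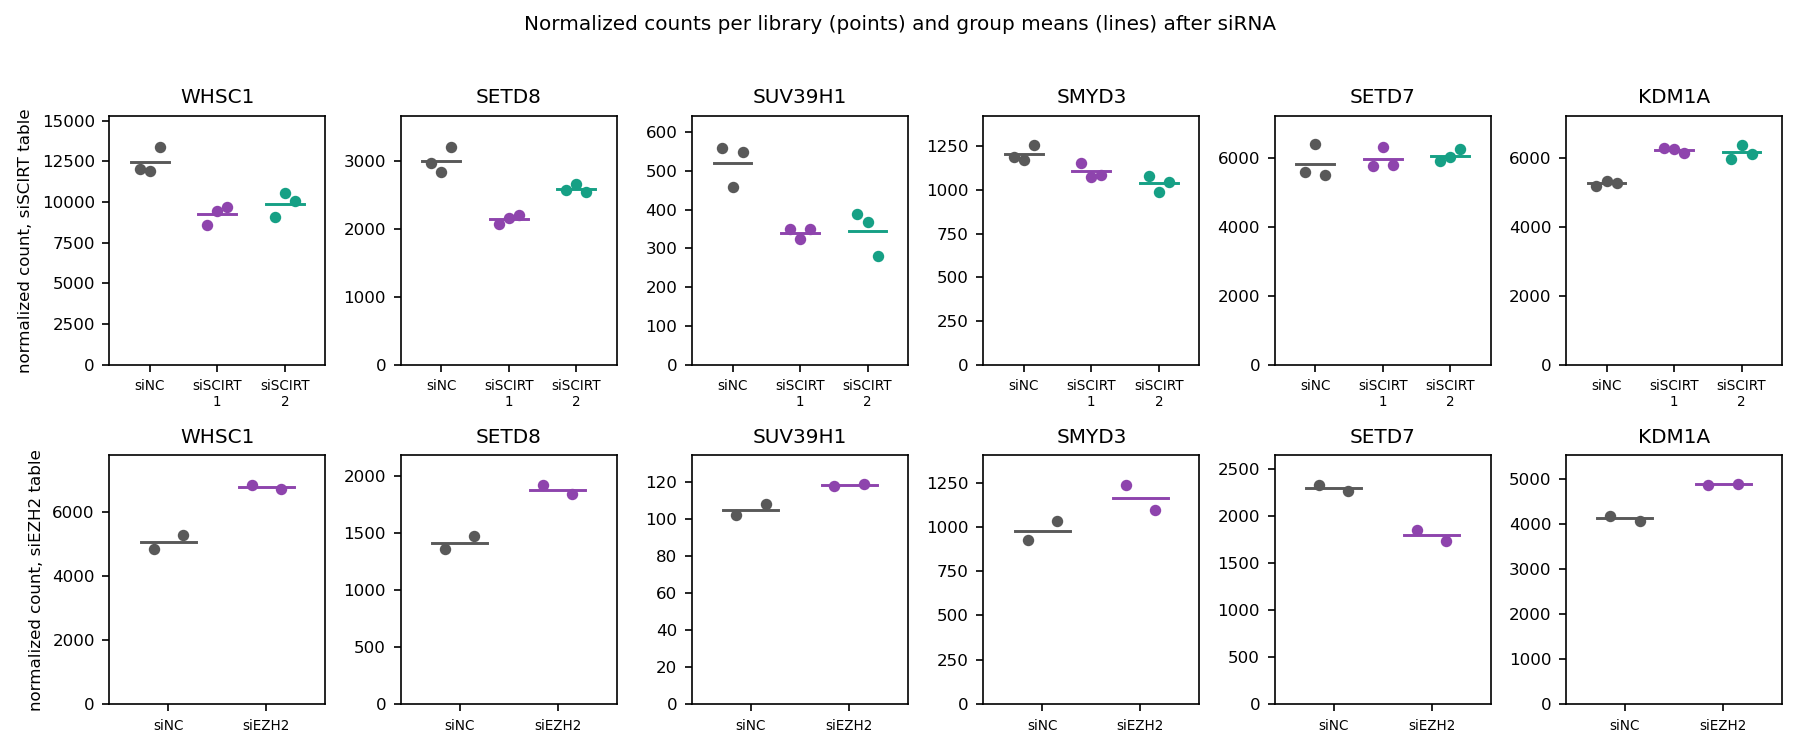
Normalized counts of 6 members in each siRNA library (points) with group means (lines), for siNC, siSCIRT 1 and siSCIRT 2 (top) and siNC and siEZH2 (bottom). Every y axis starts at 0, and the tables were normalized separately, so levels are compared within a row only. WHSC1 and SETD8 are below the controls in the top row and above them in the bottom row.

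Partner lists are read beside the shares of all genes given above for each knockdown. For the mean of both siSCIRT (6.82% of all genes higher, 7.58% lower), 1 of 12 COMPASS and MLL partners fell (PSIP1, -0.23), 1 of 7 CoREST partners rose (RCOR2, 0.71), the 4 PRMT5 partners ranged from -0.17 to 0.15, and EZH2 was the 1 of 7 other histone lysine methyltransferases that fell (-0.51 ± 0.07). With siEZH2 (3.9% higher, 2.94% lower), 3 of 12 COMPASS and MLL partners rose: RBBP5, a core COMPASS subunit, by 0.59 ± 0.13, WDR82 by 0.45 ± 0.12 and NCOA6 by 0.38 ± 0.12. Of 7 CoREST partners only HDAC1, a histone deacetylase, was called, with a rise of 0.62 ± 0.12, or 1.53-fold. It went from 6317 and 7114 normalized counts in the controls to 10364 and 10192 after siEZH2. The summed level of all 7, HDAC1 included, was 20988 to 21011 in the controls and 25411 to 26350 after siEZH2. The PRMT5 partners ranged from -0.16 to 0.16.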

How the data were processed

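RNA-seq values of MDA-MB-231 were deposited by the authors as 3 tables, each normalized on its own. Tools named in the submitters' processing notes, with no role or order, are Partek, TopHat2 and CASAVA 1.4, with the build hg19, and the counting program is not given in the sources used here. The deposited culture and siSCIRT values are on a log2 scale (DESeq2's variance-stabilizing transform, lowest value 13.4 and 7.48 in every library), and the deposited siEZH2 values are normalized counts (signal). The design assumed linear values, so the log2 values were turned back into normalized counts by the exact inverse, and into reads, which came out whole within 0.05 for 100% of values in all 19 libraries. Groups follow the sample titles. Columns of siSCIRT 2 are numbered as such, and assigning the remaining knockdown columns to siSCIRT 1 is an inference.

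Every table had its own fit with limma 3.58.1 in R 4.3.3 on log2(normalized count + 1), eBayes with trend and robust. Genes averaging 10 or more normalized counts entered, with p Benjamini-Hochberg adjusted over all of them, two-sided, in 8 comparisons. Whether replicates were separate cultures is not said in the labels, so the spread behind each p may be technical. The script was tested on simulated data. Members and lists were chosen with earlier results of these data known. Values per library are given for up to 4 members per role with the smallest adjusted p in spheres, members called for the mean siSCIRT or siEZH2 comparison and members with opposite called signs at 16 h and 5 d, and of partner lists up to 3 genes with the smallest adjusted p. Tried besides were quantile normalization, a pseudocount of 8, dropping the filter or raising it to 50, no trend, a replicate block, only the compared groups, the log2 values as deposited, edgeR 4.0.16 and DESeq2 1.42.0 on recovered reads, and each library left out. Promoter sequences are RefSeq's (GRCh38.p14), lengths GENCODE 29's.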

Additional observations from a re-analysis of the deposited data

Results flagged for a closer look

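The siEZH2 response differed from the mean siSCIRT response for 6 of the 53 members, by a test of the difference itself. The test, chosen after seeing the data, joined the 13 siRNA libraries in 1 limma model with each knockdown set against its own controls. It called 2309 of 15369 genes (15%), so the share of members called was no higher than that of all genes. The siEZH2 change exceeded the siSCIRT change by 0.80 on the log2 scale for WHSC1 (adjusted p = 4.7e-05), by 0.76 for SETD8 (adjusted p = 4.72e-05) and by 0.78 for SUV39H1 (adjusted p = 0.00896). By the mean of both siSCIRT, WHSC1 and SETD8 fell, and both rose with siEZH2, while SUV39H1 fell with siSCIRT and was not called with siEZH2. SETD8 was not called with siSCIRT 2 alone. The siEZH2 rises of WHSC1 and SETD8 were each lost without siNC replicate 1. SMYD3, called in neither, differed by 0.43 (adjusted p = 0.0234), with -0.17 for siSCIRT and 0.25 for siEZH2. SETD6 differed by -0.59 (adjusted p = 0.0119), with 523, 515 and 520.4 normalized counts under siNC and 485 to 627 in the siSCIRT libraries, and 295 and 255 under siNC and 192 and 208 with siEZH2. SETD7 differed by -0.41 (adjusted p = 0.0149). The tables were normalized separately and come from separate experiments. S phase genes fell in one knockdown and were higher in the other, and their part in these differences was not tested.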

How the results depend on the processing

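No change of a named member reversed under any alternative run. In the culture table, 17 of 30 calls at 16 h, 26 of 36 at 5 d and 15 of 21 between the sphere times were kept without each library in turn. For siSCIRT 1 (5 members called) DESeq2 gave 9 and leaving out a library 3 to 7, with 3 without siNC replicate 1 or siSCIRT 1 replicate 2. For siSCIRT 2 (7 called) eBayes without trend gave 2, only the compared groups in the fit gave 4 and leaving out a library 1 to 9, with 2 without siNC replicate 1, 1 without siNC replicate 3, 4 without siSCIRT 2 replicate 1 or 2 and 3 without its replicate 3. For the mean of both (8 called) leaving out a library gave 4 (without siNC replicate 3) to 10, with SUV39H1, WHSC1, SETD8 and KDM1A kept each time. For siEZH2 (3 called) eBayes without trend gave 0, where edgeR gave 4 and DESeq2 3. Leaving out a library gave 0 to 3, with 0 without siNC replicate 1 and 1 without siNC replicate 2, so no siEZH2 call was kept under every alternative. Where leaving out a library left 1 sample in a group, that sample is assumed to vary like the other groups.

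Replicate numbers were checked for pairing by the correlation of deviations from group means between libraries of the same number. It ran from -0.007 to 0.003 in the culture table and -0.009 to 0.445 in the siSCIRT table, and was -0.068 in the siEZH2 table. In the siSCIRT table, replicate 1 libraries correlated at 0.444, 0.445 and 0.429 with each other, and at -0.331 to -0.091 with other numbers. The labels state no pairing and the main fits held no block, so this shared structure was not modelled there. With the replicate number as a block, 30, 37 and 23 members were called in the culture comparisons, 11 with siSCIRT 1, 10 with siSCIRT 2, 12 for their mean and 1 with siEZH2. The share of all genes called moved as well, to 18.9%, 18.7%, 24.3% and 3.36% in these 4 comparisons. Not every siSCIRT library correlated best with its own number. Depth limits what can be said of KDM4D, under the filter in the culture table, and of KDM8, at 17.1 to 29.3 normalized counts there.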
